A study of Mus musculus with 15 samples.

Results

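Tumours grown from the mouse Lewis lung carcinoma line LLC1 with a guide against Lkb1 were compared with tumours of the wild-type line, all of them labelled as given an immune checkpoint inhibitor (ICI). The members are the 3 libraries labelled LLC1-sgLkb1, genotype LKB1 knockdown (here KD ICI 1 to 3), and the 3 libraries labelled LLC1, genotype wild type (here WT ICI 1 to 3). They were chosen by their labels alone and are 6 of the 15 libraries of the series, with 53465 genes in the count table and 16617 tested. A further 6 libraries of the same table, 3 KD and 3 WT tumours given radiation with ICI (RI), entered the fit and gave the same genotype comparison in other tumours, and the 3 libraries of KD tumours given radiation alone were not used. No library is labelled untreated, so that by the labels every group compared carries ICI. The description of KD ICI 3 carries the stem CON, as set out below. The mouse strain, the site of the tumour, the agent behind ICI, the dose and whether sgLkb1 is 1 clone or a pool are stated by no source used here. The labels number the libraries of a group without saying that they come from separate animals, so p-values measure only the spread between these samples, which may be technical.

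LKB1, encoded by Stk11, is a serine/threonine kinase that activates AMPK, the sensor of low cellular energy, and its relatives, among them the salt-inducible kinases that keep the CRTC coactivators of CREB out of the nucleus. It is a tumour suppressor of lung adenocarcinoma, and its loss in lung tumours is known for poor response to blockade of PD-1 or PD-L1 and for a microenvironment with few T cells. LLC1 is a line from a spontaneous lung tumour of the mouse, and a library made from a whole tumour holds RNA of the carcinoma cells and of all host cells in it.

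The 6 libraries held 17289313 to 23471917 counts, and in them 1 count was worth 0.0399 to 0.0680 CPM (counts scaled to the library total) after TMM. Stk11 itself stood at 168, 152 and 171 CPM in WT ICI 1 to 3 and 115, 128 and 152 CPM in KD ICI 1 to 3, a log2 fold change of -0.31 ± 0.11 (adjusted p = 0.0556) that missed the threshold of 0.05. It passed, still lower in KD, under 6 alternatives: without KD ICI 3 (-0.43, adjusted p = 0.00450), without KD RI 2 (0.0473), with DESeq2 (0.0425), with library totals (0.0117), with no filter on low counts (0.0468) and with the naming stem as a term (0.00360). Of the markers of the labelled tissue, Krt8 stood at 496 to 584 CPM in WT and 478 to 755 in KD. Krt18 stood at 49.3 to 71.5 CPM in WT and 11.3 to 32.1 in KD, with no overlap. Epcam and Cdh1 were under 1 CPM in each library, Cdh1 at 0.549 to 0.958 in WT and 0.0520 to 0.226 in KD. Of the lung epithelial markers Nkx2-1 and Sftpa1 had no count, and Napsa stood at 4.31 to 5.35 CPM in WT and 1.98 to 6.25 in KD. The sum of 6 T cell markers was 14.6 to 20.97 CPM in WT and 0.952 to 1.72 in KD, that of 6 macrophage markers, 3 of them the C1q genes, 698 to 807 and 237 to 330. The sum of 7 neutrophil markers, S100a8 and S100a9 among them, was 35.9 to 75.2 CPM in WT and 690, 357 and 166 in KD ICI 1 to 3. The erythroid sum was 39.3, 769 and 45.5 CPM in WT and 2194, 775 and 179 in KD, the adipocyte sum 10.2, 20.3 and 6.75 in WT and 330, 194 and 31.7 in KD. Of the adipocyte sum Fabp4 alone made up 327, 191 and 26.9 CPM in KD ICI 1 to 3. The markers Adipoq, Plin1, Lep and Retn were under 1 CPM in each of the 6 libraries. In bulk tumours fewer cells of a type and less RNA per cell cannot be told apart.

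The genotypes differed across the genome. Of the 16617 genes tested, 2672 (16.1%) were higher and 2474 (14.9%) lower in KD than in WT under ICI (edgeR's quasi-likelihood test on the counts of all 12 libraries, Benjamini-Hochberg adjusted p under 0.05). A gene is called held below when it also passed, in the same direction, in each of 12 fits that left out 1 library and in a fit with KD ICI 1 and 2 summed, since both carry the start H80 in their descriptions. By this rule 1546 genes (9.3%) were held higher and 1419 (8.54%) held lower, and in what follows "rose" and "fell" are used of held genes only. The median fold of held genes was 1.97 among those that rose and 2.23 among those that fell, with 329 and 324 genes past 4-fold. With library totals in place of TMM factors, which moved the median log2 fold change by -0.208, 27.4% of called genes were higher in place of 51.9%, and 1320 of the genes held higher and all 1419 held lower still passed. Among the family members named below that rose, Arntl2, Eif3c, Eif4b, Gclc, Gpx8 and P4ha1 did not pass under that scaling. Among the held genes named, Sprr2k (adjusted p = 0.0531) and Dcn (0.0603) did not pass with no filter on low counts. With the 6 libraries alone the held genes Arntl2, Eif4b, Il2rg, Loxl2, P2ry6 and Psmg1 did not (0.0522 to 0.0713). The most abundant genes leaned upward: of the 4154 genes with a mean over 60.2 CPM 716 were held higher and 222 lower, of the 4154 genes between 2.21 and 18.6 CPM 297 and 541. Processed pseudogenes had 45 held higher and 12 held lower of 876, a class whose reads cannot be told apart from those of the parent gene.

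The KD ICI libraries did not stand close together. On the first principal component of log2 CPM over the 12 libraries, which carried 52.7% of the variance, the WT ICI libraries stood at -51.1, -58.5 and -52.9 and KD ICI 1 to 3 at 77.4, 55.4 and 27.96. On the second (12.3%) KD ICI 1 and 2 stood at 49.1 and 33.2 and KD ICI 3 at -32.9, next to the KD RI libraries at -24.4, -10.7 and -39.3. KD ICI 3 is the library whose description, SG793-CON-S3, carries the stem CON, where KD ICI 1 and 2 carry H80. It shares the start SG793 with KD RI 1 and 3, described as SG793-ICI+RT-S1 and SG793-ICI+RT-S2, whereas KD RI 2 carries G100. CON stands where those descriptions carry ICI+RT, while the label of KD ICI 3 is ICI. The names alone do not settle whether this tumour was given ICI, and the library was kept as labelled. No source used here says what H80, SG793, CON, JIAN and TUI stand for, or whether KD ICI 1 and 2 come from 1 animal. By the root mean square log2 difference over all tested genes KD ICI 3 was 0.876 and 0.784 from KD ICI 1 and 2, which were 0.531 from each other, 0.655 and 0.610 from KD RI 1 and 3 of the same start, and 0.685 from KD RI 2. What the shared start has to do with this closeness was not tested. Without KD ICI 3 the test called 3895 genes higher and 3891 lower. With KD ICI 1 and 2 summed into 1 library it called 2069 higher and 1917 lower. The descriptions of WT ICI 1 and 3 and KD ICI 2 share the stem TUI, and those of WT ICI 2 and KD ICI 1 the stem JIAN. SG793 was a level of its own, carried by KD libraries alone, so that in this fit KD ICI 3 was compared with no WT library of its own level. With the stem as a term in the fit 3469 genes were higher and 3470 lower, among them 1545 of the 1546 genes held higher and all 1419 held lower.

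**Figure D1:**
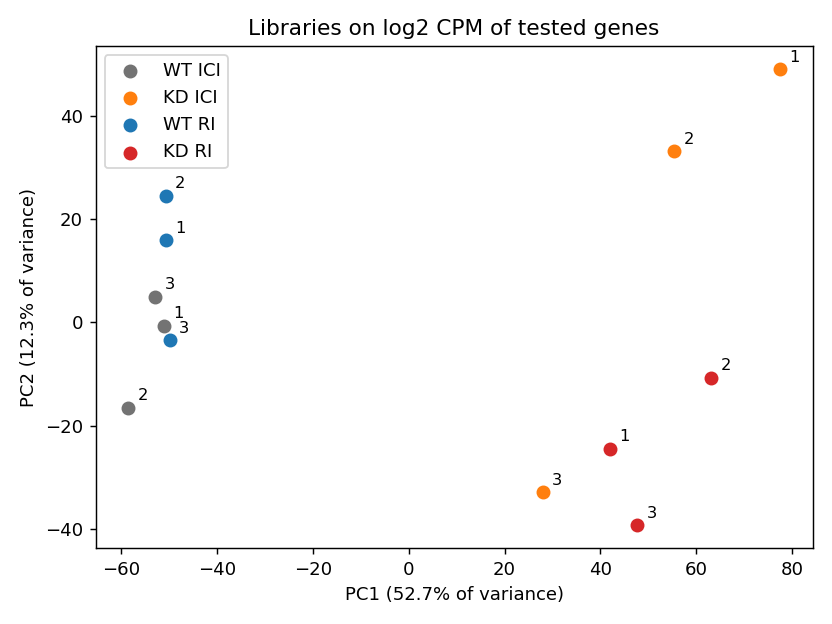
First (x axis) against second (y axis) principal component of log2 CPM (prior count 2) of the 16617 tested genes, each point 1 of 12 libraries, coloured by group and labelled by number. WT libraries lie at the left, KD libraries at the right, and KD ICI 3 lies with the KD RI libraries, below KD ICI 1 and 2.

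The genes with the largest rises under ICI included small proline-rich proteins, membrane proteases and the cytokine Il11. By a fixed rule (held, no overlap between the 3 and 3 libraries, at least 5 CPM in the higher group, no predicted gene) the 12 leading genes were Sprr1b, Gad1, Tmprss11f, Osbp2, Sprr2k, Tmem163, Gap43, Tmprss11e, Sprr1a, Nlrp4c, Atp13a4 and Il11. Sprr1a, Sprr1b and Sprr2k encode small proline-rich proteins of the cornified envelope of squamous epithelium, yet the 6 keratinocyte markers (Krt5, Krt14, Krt1, Krt10, Lor and Flg) summed to at most 0.452 CPM in any of the 6 libraries. Sprr1a stood at 1.51, 0.479 and 0.636 CPM in WT ICI 1 to 3 and 83.4, 36.999 and 25.2 CPM in KD ICI 1 to 3, a log2 fold change of 5.80 ± 0.90 (adjusted p = 0.00140). Sprr2k stood at 0.412, 0 and 0.0424 CPM in WT ICI 1 to 3 and 19.7, 11.7 and 2.70 CPM in KD ICI 1 to 3 (6.24 ± 1.38, adjusted p = 0.0101). Every KD library was above every WT library for both, and within KD the library of stem CON was the lowest. For Sprr1b the WT libraries held 3 counts in all and the KD libraries 332, a ratio of 139 by counts per depth (95% exact interval 47.2 to 678, counting error only), with 10.5, 4.21 and 4.42 CPM in KD ICI 1 to 3.

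Tmprss11f and Tmprss11e are trypsin-like membrane proteases of airway and squamous epithelium, encoded in 1 cluster on chromosome 5. Tmprss11f stood at 0.595, 0.0399 and 0 CPM in WT and 34.2, 17.5 and 17.3 in KD (6.79 ± 1.03, adjusted p = 0.00106), and Tmprss11e at 0.229, 0.239 and 0.170 CPM in WT and 17.1, 11.1 and 9.25 in KD (5.83 ± 0.63, adjusted p = 1.04e-04). A neighbour of the cluster, Tmprss11g, had no count in the WT ICI libraries and 4.42, 1.81 and 0.936 CPM in KD ICI 1 to 3, at least 51.5-fold higher against 3 counts over the WT group. Of 15 Tmprss and kallikrein-type proteases tested 6 were held higher and none lower, 4 of the 6 on chromosome 5, and the median log2 fold change of the family was 0.59. Il11, a cytokine of the IL-6 family that signals through gp130, stood at 5.998, 1.68 and 2.55 CPM in WT and 149, 106 and 126 in KD (5.23 ± 0.73, adjusted p = 8.46e-04). Gap43, a growth cone protein of neurons, stood at 7.23, 0.439 and 1.02 CPM in WT and 185, 122.6 and 189 in KD (5.86 ± 0.80, adjusted p = 8.36e-04). For both, the lowest KD library stood above the highest WT library. Osbp2, an oxysterol-binding protein, stood at 10.8, 0.160 and 1.44 CPM in WT and 476, 325 and 286 in KD (6.48 ± 1.31, adjusted p = 0.00642), with a wide spread among the WT libraries.

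Promoters of the leading genes are shown because a motif of the AP-1 transcription factors, TGANTCA (its own reverse complement), was found in 5 of the 10 leading rising genes with a RefSeq promoter (Sprr1a, Sprr1b, Sprr2k, Tmprss11f and Atp13a4) and in 1 of 11 leading falling genes (Cxcl9). The windows are the 250 bases before and 50 after the RefSeq start, 5′ to 3′ on the gene's strand, with the motif in capitals. They lie on GRCm38.p6 at chr3:92485832-92486131 (minus strand, Sprr1a), chr3:92438730-92439029 (minus, Sprr1b), chr3:92432332-92432631 (plus, Sprr2k) and chr5:86632375-86632674 (minus, Tmprss11f).
Sprr1a: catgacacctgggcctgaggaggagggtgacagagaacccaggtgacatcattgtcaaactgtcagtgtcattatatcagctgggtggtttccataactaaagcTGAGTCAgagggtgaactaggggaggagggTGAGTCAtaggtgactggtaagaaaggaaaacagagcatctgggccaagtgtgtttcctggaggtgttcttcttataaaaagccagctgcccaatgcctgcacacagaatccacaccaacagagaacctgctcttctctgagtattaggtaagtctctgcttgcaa
Sprr1b: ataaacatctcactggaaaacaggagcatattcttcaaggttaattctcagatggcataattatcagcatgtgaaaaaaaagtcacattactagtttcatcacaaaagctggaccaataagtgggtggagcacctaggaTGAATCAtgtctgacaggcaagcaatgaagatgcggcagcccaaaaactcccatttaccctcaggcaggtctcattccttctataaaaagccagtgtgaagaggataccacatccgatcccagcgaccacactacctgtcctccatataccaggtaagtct
Sprr2k: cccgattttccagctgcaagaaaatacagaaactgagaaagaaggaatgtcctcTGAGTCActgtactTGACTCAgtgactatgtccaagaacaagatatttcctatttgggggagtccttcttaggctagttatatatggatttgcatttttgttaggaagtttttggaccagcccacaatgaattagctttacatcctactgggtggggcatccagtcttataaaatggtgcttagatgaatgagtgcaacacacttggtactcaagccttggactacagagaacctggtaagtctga
Tmprss11f: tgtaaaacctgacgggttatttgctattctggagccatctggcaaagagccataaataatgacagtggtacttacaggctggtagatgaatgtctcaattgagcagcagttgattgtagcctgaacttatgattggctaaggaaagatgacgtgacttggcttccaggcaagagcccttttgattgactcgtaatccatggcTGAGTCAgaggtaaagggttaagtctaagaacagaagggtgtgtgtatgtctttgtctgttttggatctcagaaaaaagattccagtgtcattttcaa
In Sprr1a the matches begin 146 and 116 bases before the start and in Sprr2k 196 and 182, in Sprr1b 111 and in Tmprss11f 48. Sprr1a, Sprr1b and Sprr2k are related genes close together on chromosome 3, so their matches may not be independent of one another. A match is a string of letters, not a bound site.

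Over all 11264 tested genes with a RefSeq promoter, TGANTCA stood in 5.41%, in 8.34% of the 1127 held higher and in 6.15% of the 1025 held lower. For the interferon-stimulated response element core, TTTC and TTTC with NN between them on either strand, the shares were 3.20% of all, 2.57% of the genes held higher and 6.54% of those held lower. The full cAMP response element TGACGTCA, the site of CREB, was in 3.15% of all promoters, 2.93% of those held higher and 2.83% of those held lower. The GC box GGGCGG stood at 61.8%, 64.8% and 54.5%. The hypoxia response core ACGTG was in 25% of all promoters, 26.4% of those held higher and 19.5% of those held lower. The median G+C content of the windows was 61.7% in the genes held higher and 58.3% in those held lower, against 60.3% in all. These shares are descriptions with no test, and their relation to G+C content was not tested. The interferon motif is shown in 2 genes that fell, the interferon-inducible GTPase Tgtp2 (chr11:49064163-49064462, minus strand) and Socs1, the cytokine-induced inhibitor of JAK kinases (chr16:10785487-10785786, minus strand).
Tgtp2: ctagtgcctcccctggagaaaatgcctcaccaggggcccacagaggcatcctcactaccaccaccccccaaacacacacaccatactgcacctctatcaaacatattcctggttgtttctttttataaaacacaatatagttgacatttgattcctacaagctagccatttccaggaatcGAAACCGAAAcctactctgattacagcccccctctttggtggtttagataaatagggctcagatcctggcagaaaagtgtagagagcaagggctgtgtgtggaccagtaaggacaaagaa
Socs1: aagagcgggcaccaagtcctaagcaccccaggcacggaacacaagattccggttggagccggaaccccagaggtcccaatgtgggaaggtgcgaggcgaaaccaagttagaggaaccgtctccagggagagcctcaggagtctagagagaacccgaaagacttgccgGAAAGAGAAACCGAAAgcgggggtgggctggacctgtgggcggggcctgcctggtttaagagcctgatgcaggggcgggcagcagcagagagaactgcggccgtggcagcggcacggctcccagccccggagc
The match in Tgtp2 begins 70 bases before the start, and in Socs1 a pair of matches, 83 and 77 bases before it, overlap, so that the capitals run on. Tgtp2 stood at 12.9, 8.98 and 9.71 CPM in WT and 0.340, 0.181 and 1.77 in KD (-3.76 ± 0.54, adjusted p = 5.41e-04), and Socs1 at 29.9, 24.5 and 26.5 CPM in WT and 12.03, 11.4 and 14.7 in KD (-1.08 ± 0.14, adjusted p = 3.07e-04). For both, all KD values lay under all WT values.

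The genes with the largest falls included the transcription factor Sall1, the secreted BMP antagonists Smoc1 and Grem1, and genes of macrophages. The 12 leading genes were Sall1, Smoc1, Mme, Wnt6, Accsl, Grem1, Lyz1, Cxcl9, Mgl2, Marco, Col8a1 and Tgtp2. Sall1, a zinc finger repressor of kidney and limb development, stood at 5.59, 4.19 and 5.85 CPM in WT ICI 1 to 3 and had no count in any KD ICI library, at least 96.8-fold lower against 3 counts over the KD group. Smoc1, a secreted BMP antagonist, stood at 14.2, 14.4 and 14.7 CPM in WT and 0.0680, 0.271 and 0.208 in KD (-6.18 ± 0.28, adjusted p = 4.09e-07). The BMP antagonist Grem1 stood at 48.1, 21.5 and 59.1 CPM in WT and 3.40, 2.04 and 0.988 in KD (-4.36 ± 0.59, adjusted p = 5.82e-04), and the ligand Wnt6 at 6.04, 7.38 and 6.66 CPM in WT and 0.136, 0.181 and 0.312 in KD (-4.93 ± 0.32, adjusted p = 7.45e-06). In all of them all KD values lay under all WT values. Col8a1, a short-chain collagen of vessel walls, stood at 54.6, 53.4 and 51.3 CPM in WT and 1.16, 3.21 and 5.77 in KD (-3.94 ± 0.49, adjusted p = 3.07e-04), and the membrane metalloprotease Mme, known as neprilysin or CD10, at 16.9, 24.6 and 17.3 CPM in WT and 0.136, 1.18 and 0.416 in KD (-4.99 ± 0.75, adjusted p = 8.00e-04). Lyz1, Mgl2 and Marco are genes of macrophages, and Cxcl9 encodes the interferon-induced chemokine that draws CXCR3-bearing T cells. Cxcl9 stood at 80.8, 50.8 and 52.8 CPM in WT and 0.544, 1.31 and 8.11 in KD (-4.18 ± 0.70, adjusted p = 0.00211). The T cell marker sum given above was lower in KD too, and its part in the fall of Cxcl9 was not tested.

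**Figure D2:**
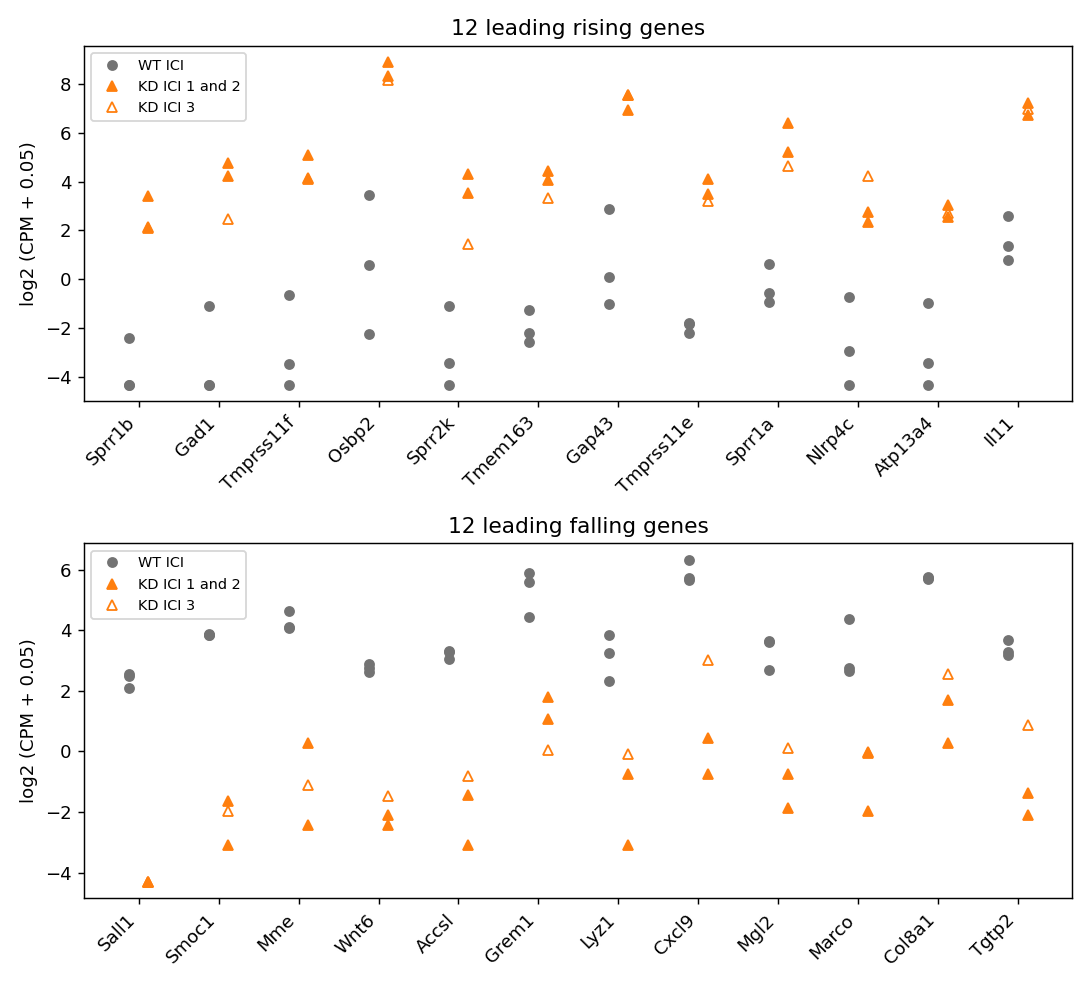
Levels of the 12 leading rising (upper panel) and 12 leading falling genes (lower panel) in the 6 ICI libraries, on a log2 axis of CPM + 0.05, a point per library. WT libraries are grey circles, KD ICI 1 and 2 filled triangles and KD ICI 3, of stem CON, an open triangle, and no WT point overlaps the KD points of the same gene.

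In several chromosome regions most genes lay on 1 side of the WT level. The 11070 tested genes with a mean of at least 5 CPM were binned by midpoint into 227 windows of 10 Mb with at least 15 genes each, a layout chosen after chromosome medians had been seen and given here with no test. The window medians of the log2 fold change lay between -0.86 and 0.55. They were at or below -0.3 in 13 windows and at or above 0.3 in 15, and in all of these the median of each KD ICI library lay on the same side of the WT mean. In no window did a WT ICI library's median lie more than 0.0956 from the mean of the WT libraries. Among these genes 11.6% were held higher and 8.63% held lower.

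The lowest window was chromosome 6 from 70 to 80 Mb. Of its 29 genes 21 were held lower and none higher, with a median log2 fold change of -0.86 and quartiles of -1.05 and -0.59. Its median log2 difference from the WT mean was -0.87, -0.92 and -0.81 in KD ICI 1 to 3, so that KD ICI 3, which stood apart over all genes, was close to the other 2 here. In the KD RI libraries it was -1.01, -0.98 and -1.05. Whether the genes of the window share roles was not tested. Rpia, of the pentose phosphate pathway (chromosome 6, 70765720 to 70792232), stood at 75.5, 76.3 and 82.5 CPM in WT and 24.3, 25.96 and 38.3 in KD (-1.40 ± 0.16, adjusted p = 1.30e-04). Mat2a makes S-adenosylmethionine and stood at 586, 486 and 632 CPM in WT and 182, 239.6 and 277 in KD (-1.29 ± 0.17, adjusted p = 3.38e-04). Suclg1, of the tricarboxylic acid cycle (chromosome 6, 73248382 to 73276911), stood at 118, 112 and 125 CPM in WT and 55.8, 47.6 and 68.7 in KD (-1.05 ± 0.12, adjusted p = 1.57e-04), and Immt, of the mitochondrial cristae, fell by 0.90 ± 0.11 (adjusted p = 2.39e-04). Polr1a, the large subunit of RNA polymerase I, fell by 0.94 ± 0.14 (adjusted p = 5.69e-04), and Tmsb10, an actin-binding thymosin, by 0.74 ± 0.16 (adjusted p = 0.00424). For each of them the 3 KD values lay below the 3 WT values. Mat2a, Immt, Tmsb10 and the others of this paragraph were chosen after their values were seen. The 3 genes above 0 were Igkc, Rpl34-ps1 and Kdm3a, of which none passed the threshold.

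Chromosome 16 was lower over most of its length: of its 484 tested genes 125 (25.8%) were held lower and 17 (3.51%) higher, with a median of -0.39 under ICI and -0.32 under RI. Its 10 Mb windows from 0 to 50 Mb had medians of -0.44, -0.48, -0.38, -0.46 and -0.60. Chromosome 3 had 147 of 877 tested genes held lower (16.8%) and a median of -0.29. On chromosome 5 the windows from 20 to 40 Mb stood at -0.31 and -0.35 and those from 100 to 120 Mb at 0.43 and 0.38. The highest window was chromosome X from 70 to 80 Mb, with 26 of 56 genes held higher and none lower. Its median was 0.51, 0.53 and 0.40 above the WT mean in KD ICI 1 to 3. There G6pdx, which makes NADPH, rose by 0.89 ± 0.12 (adjusted p = 3.19e-04) and Irak1, a kinase of Toll-like receptor signalling, by 1.00 ± 0.13 (adjusted p = 3.07e-04). Chromosome 1 had 167 of 1068 genes held higher (15.6%). The first 10 Mb of chromosome 9 had a median of 0.40 and an upper quartile of 2.70, and hold the caspase genes described below. Across the 227 windows the medians under ICI and under RI had a Pearson correlation of 0.886. The 2 comparisons contrast different libraries, but they share both cell lines, 1 normalisation and 1 fit.

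**Figure D3:**
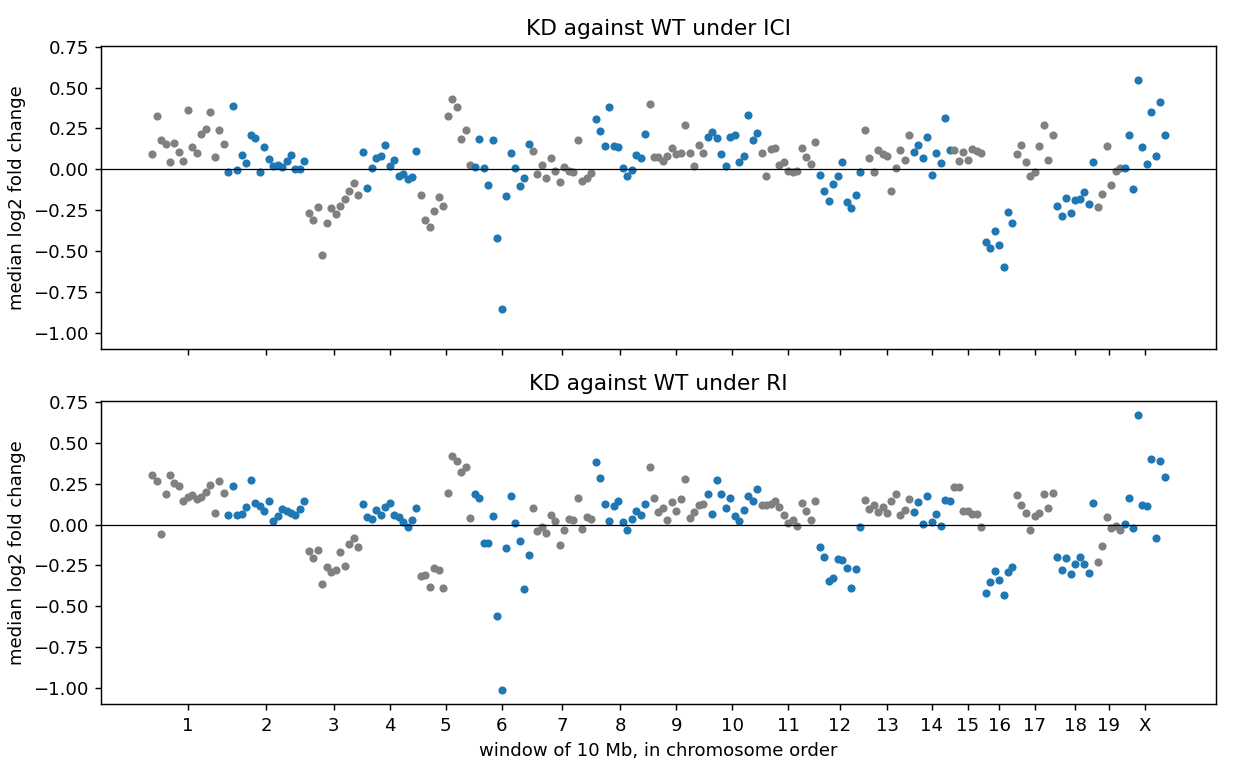
Median log2 fold change of KD against WT in 227 windows of 10 Mb, in chromosome order (x axis, chromosomes in alternating grey and blue), under ICI (upper panel) and under RI (lower panel). The lowest point in both panels is the window of chromosome 6 with 29 genes, at -0.86 and -1.02, and the runs below 0 on chromosomes 3 and 16 appear in both.

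Gene families were read against the shares over all tested genes, 9.3% held higher and 8.54% held lower. Of 129 families laid down by name, 124 had at least 8 tested members, and in 51 of those the share of held genes in 1 direction was at least 2 times that of all tested genes. They are described by role, but for 1 that is left out, and their counts stand in place of a test of the family.

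**Figure D4:**
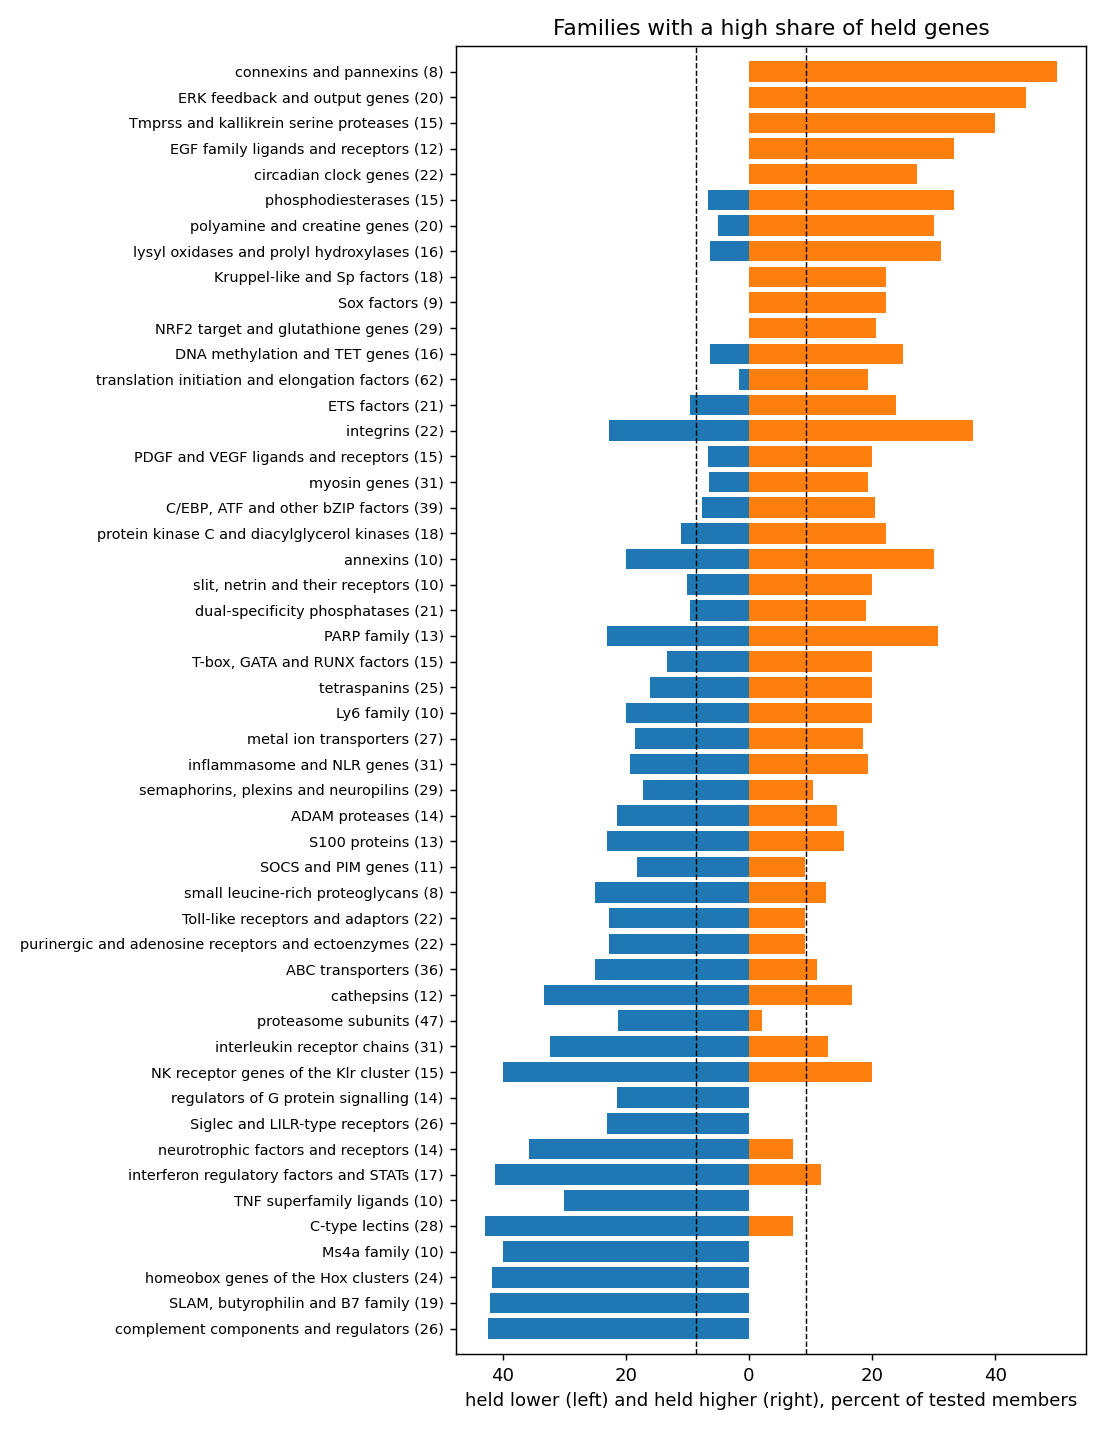
Share of tested members held higher (right, orange) and held lower (left, blue) in these families (1 of the 51 is not drawn), in percent, with the number tested beside each name. Dashed lines mark the shares over all tested genes, 9.3% and 8.54%.

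Among ligands and receptors, 4 growth factors of the EGF family rose. Of 12 EGF family ligands and receptors tested 4 were held higher (33.3%) and none lower, and all 4 encode ligands. Areg stood at 18.9, 4.71 and 14.97 CPM in WT and 282, 123.2 and 149.9 in KD (3.85 ± 0.58, adjusted p = 0.00119), Ereg at 14.3, 6.30 and 13.7 CPM in WT and 200.3, 104 and 133 in KD (3.67 ± 0.42, adjusted p = 2.34e-04). Both genes lie on chromosome 5, and each KD library was above every WT library. Hbegf stood at 23.6, 15.4 and 25.3 CPM in WT and 46.7, 34.2 and 48.04 in KD (1.00 ± 0.18, adjusted p = 0.00186), and Tgfa rose by 1.95 ± 0.36 (adjusted p = 0.00207). By the authors' FPKM, which compare genes per length, the KD means were 137 for Areg, 31.98 for Ereg, 16.6 for Hbegf and 0.608 for Tgfa. Of 15 PDGF and VEGF ligands and receptors, 3 ligands were held higher and 1 receptor lower. Pgf, placental growth factor, rose by 1.34 ± 0.31 (adjusted p = 0.00672) and Pdgfc by 1.73 ± 0.19 (adjusted p = 9.15e-05), while Pdgfrb, the receptor of pericytes and fibroblasts, fell by 1.25 ± 0.24 (adjusted p = 0.00217).

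Of 31 interleukin receptor chains 10 were held lower (32.3%) and 4 higher. The chains that fell are mostly those of lymphocytes and phagocytes. The alpha chain of the IL-2 receptor, Il2ra, stood at 4.53, 2.47 and 3.44 CPM in WT and 0.544, 0.226 and 0.104 in KD (-3.63 ± 0.57, adjusted p = 8.08e-04), and Il27ra at 5.31, 5.75 and 5.13 CPM in WT and 0.136, 0.362 and 1.25 in KD (-3.17 ± 0.48, adjusted p = 6.37e-04). Il10ra fell by 1.79 ± 0.28 (adjusted p = 8.01e-04), and the common gamma chain Il2rg by 1.01 ± 0.24 (adjusted p = 0.00813). Against them, 3 chains of the IL-1 receptor family and the decoy receptor of IL-13 rose. Il1r2, the decoy receptor of IL-1, stood at 7.78, 5.75 and 6.45 CPM in WT and 93.1, 62.7 and 22.4 in KD (3.16 ± 0.54, adjusted p = 0.00182), and Il13ra2 at 2.38, 0.479 and 1.95 CPM in WT and 22.3, 14.02 and 9.77 in KD (3.26 ± 0.54, adjusted p = 0.00126). Il1rl1, the receptor of IL-33, stood at 72.5, 54.4 and 83.1 CPM in WT and 189, 224 and 246 in KD (1.65 ± 0.33, adjusted p = 0.00390). In Il1r2, a gene of neutrophils, the libraries were spread over 22.4 to 93.1 CPM in KD, with KD ICI 3 lowest. The neutrophil, erythroid and adipocyte marker sums stood in the same order, and their part in Il1r2 was not tested. Of 10 tested TNF superfamily ligands 3 were held lower and none higher, namely Tnfsf10, Ltb and Tnf. Tnf stood at 3.34, 2.51 and 4.16 CPM in WT and 0.476, 0.588 and 0.780 in KD (-2.42 ± 0.49, adjusted p = 0.00347).

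Neurotrophic factors and receptors had 5 of 14 held lower and 1 higher. The ligand of the GDNF family Artn fell by 2.06 ± 0.37 (adjusted p = 0.00188), and Bdnf rose by 1.97 ± 0.48 (adjusted p = 0.00939). Of 10 slit and netrin family genes 2 were held higher, the axon guidance ligands Slit1 and Slit2, and 1 lower, Unc5a. Slit2 stood at 10.2, 4.31 and 9.04 CPM in WT and 92.6, 62.3 and 71.3 in KD (3.27 ± 0.29, adjusted p = 3.70e-05). Semaphorins, plexins and neuropilins had 3 of 29 higher and 5 lower, with Sema3f at -1.43 and Sema4c at 0.84 on the log2 scale. Among 22 purinergic genes 5 were held lower, among them the receptors P2ry10 and P2ry6, and 2 higher. Those 2 were the ectoenzymes Nt5e, which makes extracellular adenosine and stood at 8.10, 4.31 and 8.78 CPM in WT and 33.9, 29.5 and 14.2 in KD (1.87 ± 0.31, adjusted p = 0.00116), and Entpd3.

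Integrins moved in both directions. Of 22 integrins 8 were held higher (36.4%) and 5 lower (22.7%). The 4 leading falls, Itgax, Itga4, Itgal and Itgam, encode leukocyte integrin chains, and Itgax stood at 7.51, 4.63 and 7.59 CPM in WT and 0.748, 0.905 and 2.76 in KD (-2.15 ± 0.55, adjusted p = 0.0114). Itga6, the laminin-binding chain, stood at 91.9, 49.8 and 91.04 CPM in WT and 481, 365 and 351 in KD (2.36 ± 0.24, adjusted p = 7.11e-05), and Itga2, a collagen-binding chain, at 2.79, 1.72 and 3.10 CPM in WT and 21.3, 13.8 and 7.54 in KD (2.48 ± 0.48, adjusted p = 0.00285). In all 3 the groups did not overlap. Itgb7 rose by 1.27 ± 0.24 (adjusted p = 0.00268) and Itgb3 by 1.30 ± 0.30 (adjusted p = 0.00722). Itgb5, on chromosome 16, fell by 0.72 ± 0.12 (adjusted p = 0.00108). Connexins and pannexins, the subunits of gap junctions and of large-pore channels, had 4 of 8 held higher and none lower. Gjb5 stood at 2.20, 1.12 and 0.933 CPM in WT and 24.3, 15.3 and 25.6 in KD (3.94 ± 0.38, adjusted p = 5.12e-05), and the widely expressed Gja1 at 366, 231 and 379 CPM in WT and 765, 637 and 730.03 in KD (1.13 ± 0.22, adjusted p = 0.00240). Panx1 was another of the 4. Of 25 tetraspanins 5 were held higher, led by Tspan12, Tspan11 and Cd9, and 4 lower, with Cd53 and Tspan32 of leukocytes among them.

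In the matrix, 5 enzymes that cross-link or hydroxylate collagen rose and 1 fell. Of 16 lysyl oxidases and prolyl or lysyl hydroxylases 5 were held higher (P4ha1, P4ha2, Plod2, Plod3 and Loxl2). P4ha2 stood at 41.6, 32.6 and 38.4 CPM in WT and 86.5, 70.2 and 72.7 in KD (1.03 ± 0.15, adjusted p = 4.50e-04). Loxl3, on chromosome 6 at 83 Mb, stood at 123.2, 179 and 133 CPM in WT and 40.2, 43.5 and 25.9 in KD (-1.99 ± 0.21, adjusted p = 8.57e-05), and it was the only member held lower. Cathepsins had 4 of 12 lower and 2 higher. Ctss, the cathepsin of antigen-presenting cells, stood at 266, 188 and 231 CPM in WT and 56.4, 74.2 and 89.5 in KD (-1.64 ± 0.17, adjusted p = 8.32e-05). Ctsl stood at 940.1, 696 and 909 CPM in WT and 3199, 2253 and 2191 in KD (1.59 ± 0.20, adjusted p = 2.46e-04), and Ctsk, the collagenase of osteoclasts, rose by 3.31 ± 0.78 (adjusted p = 0.0112). Among 8 small leucine-rich proteoglycans Dcn was held higher and Ogn and Aspn lower, Aspn at 9.11, 8.74 and 12.4 CPM in WT and 0.816, 1.54 and 0.572 in KD (-3.34 ± 0.47, adjusted p = 3.94e-04). ADAM proteases had 2 of 14 higher and 3 lower.

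Genes known as outputs of ERK, the last kinase of the growth factor cascade, rose in 9 cases. Of 20 ERK feedback and output genes 9 were held higher and none lower, with a median log2 fold change of 0.80 over the 20. Ier3 stood at 104, 44.3 and 90.5 CPM in WT and 885, 605 and 518 in KD (3.07 ± 0.43, adjusted p = 5.69e-04). Dusp4, a phosphatase of ERK, stood at 29.7, 16.997 and 26.005 CPM in WT and 157, 114 and 51.9 in KD (2.15 ± 0.39, adjusted p = 0.00241), and the ETS factor Etv1 at 168, 153 and 169 CPM in WT and 781, 629 and 239.6 in KD (1.75 ± 0.37, adjusted p = 0.00487). Every KD library was above every WT library for these 3, with the library of stem CON lowest in KD. For Phlda1 (23.9, 12.8 and 19.3 CPM in WT and 54.2, 34.3 and 72.5 in KD, 1.53 ± 0.26, adjusted p = 0.00128) and Dusp5 (25.2, 20.99 and 27.9 CPM in WT and 57.9, 34.7 and 68.4 in KD, 1.12 ± 0.25, adjusted p = 0.00578) KD ICI 3 was instead the highest. Spry2, a feedback inhibitor of receptor tyrosine kinases, rose by 1.03 ± 0.25 (adjusted p = 0.00891), Hmga2 by 1.42 ± 0.28 (adjusted p = 0.00276) and Fosl1, a subunit of AP-1, by 0.80 ± 0.12 (adjusted p = 6.17e-04). Under RI the median of the 20 was 0.13, and 1 of the 9, Etv1, passed the threshold. For Fosl1 the difference between the treatments passed (adjusted p = 0.0229), but not in every fit that left out 1 library or summed KD ICI 1 and 2.

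Dual-specificity phosphatases had 4 of 21 held higher, among them Dusp4 and Dusp5, and 2 lower. Of 15 phosphodiesterases, which break down cyclic nucleotides, 5 were held higher (33.3%) and 1 lower. Pde4d stood at 2.66, 4.11 and 1.87 CPM in WT and 21.8, 14.9 and 20.5 in KD (2.72 ± 0.29, adjusted p = 8.57e-05), Pde10a at 16.4, 16.1 and 15.6 CPM in WT and 52.7, 52.1 and 41.3 in KD (1.60 ± 0.15, adjusted p = 4.77e-05), and Pde1a rose by 3.58 ± 0.53 (adjusted p = 6.01e-04). For the first 2 of these KD ICI 3 lay near the other KD libraries. Of 18 protein kinase C and diacylglycerol kinase genes 4 were held higher, with Prkca at 1.09 and Prkcz at 1.68, and 2 lower, with Prkcq, the T cell isoform, at -3.62. Regulators of G protein signalling had 3 of 14 lower and none higher, with the pericyte gene Rgs5 at 22.3, 25.7 and 22.4 CPM in WT and 4.69, 4.84 and 12.8 in KD (-1.65 ± 0.36, adjusted p = 0.00532). In the SOCS and PIM genes Socs1 fell as given above, whereas Socs3, induced by cytokines that signal through STAT3, stood at 108, 76.7 and 108 CPM in WT and 232, 182 and 235 in KD (1.15 ± 0.15, adjusted p = 3.33e-04).

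Among transcription factors, 10 Hox genes, which set position along the body axis, fell. Of 24 tested these 10 were held lower (41.7%) and none higher, with a median of -0.88. Of the 10, 6 belong to the Hoxa cluster on chromosome 6, 3 to Hoxc and 1 to Hoxd. Hoxa9 stood at 62.8, 58.6 and 62.6 CPM in WT and 43.6, 39.03 and 29.4 in KD (-0.72 ± 0.14, adjusted p = 0.00251) and Hoxa10 at 31.3, 30.3 and 33.8 CPM in WT and 18.7, 16.2 and 17.9 in KD (-0.86 ± 0.13, adjusted p = 7.24e-04). Hoxc6 stood at 10.6, 9.82 and 10.6 CPM in WT and 4.15, 4.84 and 6.76 in KD (-0.97 ± 0.19, adjusted p = 0.00303), and Hoxd3 at 3.02, 2.71 and 3.05 CPM in WT and 0.408, 0.995 and 0.572 in KD (-2.11 ± 0.42, adjusted p = 0.00294). The groups did not overlap in any of the 4. The window of chromosome 6 from 50 to 60 Mb, which holds Hoxa, had a median of -0.42 over 38 genes. Under RI 5 of the 10 passed in the same direction, Hoxa3, Hoxa7, Hoxa9, Hoxa10 and Hoxa13, while Hoxc5, Hoxc6 and Hoxd3 stood at 0.11, -0.24 and -0.48.

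Krüppel-like factors had 4 of 18 held higher and none lower. Klf5, a factor of proliferating epithelium, stood at 19.96, 12.5 and 17.4 CPM in WT and 90.9, 56.2 and 64.5 in KD (2.09 ± 0.24, adjusted p = 1.48e-04), and Klf4, Klf7 and Klf13 rose by 0.96 to 1.29. Of 9 Sox factors Sox9 and Sox5 were held higher, Sox9 at 23.2, 11.1 and 20.1 CPM in WT and 112, 85.98 and 56.8 in KD (2.23 ± 0.32, adjusted p = 6.41e-04). The ETS factors had 5 of 21 higher, led by the epithelial factor Elf3 at 5.54, 2.79 and 1.78 CPM in WT and 49.9, 18.6 and 74.4 in KD (3.82 ± 0.54, adjusted p = 6.52e-04), and 2 lower, Spi1 of myeloid cells and Elk1. Of 39 bZIP factors 8 were held higher and 3 lower. Maff stood at 78.9, 57.1 and 65.5 CPM in WT and 305, 269 and 149.9 in KD (1.84 ± 0.28, adjusted p = 8.65e-04) and the stress-induced Atf3 at 13.9, 7.46 and 12.3 CPM in WT and 53.8, 25.7 and 28.3 in KD (1.68 ± 0.33, adjusted p = 0.00291). Cebpb stood at 163, 124 and 202 CPM in WT and 306, 316 and 362 in KD (1.01 ± 0.23, adjusted p = 0.00647), whereas Cebpa fell by 1.58 ± 0.17 (adjusted p = 7.70e-05). Interferon regulatory factors and STATs had 7 of 17 lower (41.2%) and 2 higher. Irf1 stood at 88.5, 84.7 and 82.3 CPM in WT and 36.6, 33.4 and 50.6 in KD (-1.08 ± 0.15, adjusted p = 3.94e-04), while Stat3 rose by 0.54 ± 0.12 (adjusted p = 0.00453). Among 15 T-box, GATA and RUNX factors Tbx21, which directs type 1 T cells, was at 1.69, 0.838 and 1.27 CPM in WT and 0.204, 0.136 and 0.208 in KD (-2.77 ± 0.45, adjusted p = 8.96e-04), and 3 were held higher.

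Circadian clock genes, whose products form a feedback loop with a daily rhythm, had 6 of 22 held higher (27.3%) and none lower. Bhlhe40 stood at 30.6, 29.7 and 29.5 CPM in WT and 155, 133 and 81.2 in KD (2.04 ± 0.26, adjusted p = 2.88e-04), Nfil3 at 30.2, 22.98 and 28.97 CPM in WT and 82.2, 64.2 and 56.9 in KD (1.31 ± 0.18, adjusted p = 3.63e-04) and Nr1d1 at 17.7, 14.2 and 17.1 CPM in WT and 33.4, 35.4 and 21.9 in KD (0.89 ± 0.19, adjusted p = 0.00504). All 3 had separate groups. The others were Cry2, Csnk1e and Arntl2. Under RI none of the 6 passed, and no source used here states the hour of harvest.

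Most held members of the innate immune receptor families fell. Beside them, 4 of 5 leukocyte markers were lower in each KD library than in any WT library, Ptprc at 42.6 to 58.5 CPM in WT and 18.6 to 34.1 in KD. The other, Arhgdib, was at 24.4 to 30.3 CPM in WT and 55.3 to 106.7 in KD. By the held rule 3 of the 5 were lower and none higher, with Ptprc and Arhgdib not held. Of 28 C-type lectins 12 were held lower (42.9%) and 2 higher. Clec12a stood at 15.8, 11.5 and 10.6 CPM in WT and 1.22, 1.18 and 4.26 in KD (-2.49 ± 0.43, adjusted p = 0.00146) and Clec4n, known as dectin-2, at 44.4, 21.6 and 45.2 CPM in WT and 3.87, 6.60 and 18.4 in KD (-1.93 ± 0.47, adjusted p = 0.0105). Clec4e, known as Mincle, went the other way from its cluster neighbours at 14.6, 9.38 and 15.5 CPM in WT and 63.6, 56.8 and 36.6 in KD (1.99 ± 0.33, adjusted p = 0.00128), and so did Clec4d at 1.25. In 15 genes grouped by their natural killer receptor name (Klr), 6 fell and 3 rose, Klrg2 among the rises. All of these lie on chromosome 6, but not all need belong to 1 cluster. Klrk1, which encodes the receptor NKG2D, stood at 6.09, 4.83 and 5.47 CPM in WT and 0.476, 0.724 and 1.14 in KD (-2.78 ± 0.41, adjusted p = 5.86e-04) and Klrd1, known as CD94, at 4.72, 3.19 and 4.24 CPM in WT and 0.204, 0.226 and 1.20 in KD (-2.87 ± 0.53, adjusted p = 0.00190). Klra4, a receptor of the Ly49 group, stood at 3.16, 2.35 and 2.21 CPM in WT and 27.6, 24.5 and 21.99 in KD (3.26 ± 0.28, adjusted p = 3.19e-05). The Ly49 genes are near-identical copies, so counts of Klra4 and Klra6 are uncertain, as reads may have been split among copies.

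Complement components and regulators had 11 of 26 held lower (42.3%) and none higher. C1qa stood at 184, 153 and 165 CPM in WT and 25.2, 46.996 and 54.9 in KD (-1.98 ± 0.22, adjusted p = 1.08e-04), and the receptor C3ar1 at 58.6, 46.8 and 58.8 CPM in WT and 8.22, 11.9 and 31.6 in KD (-1.66 ± 0.38, adjusted p = 0.00749). Properdin, encoded by Cfp, fell by 1.43 ± 0.22 (adjusted p = 7.56e-04). Of 26 Siglec and LILR-type receptors 6 were held lower and none higher, with Trem2 at 21.8, 20.2 and 19.9 CPM in WT and 3.67, 4.52 and 12.2 in KD (-1.60 ± 0.34, adjusted p = 0.00479) and Lair1 at -2.50. The Ms4a family had 4 of 10 lower, all on chromosome 19, and none higher. SLAM, butyrophilin and B7 genes had 8 of 19 lower (42.1%) and none higher, 6 of them on chromosome 1. Slamf8 stood at 12.4, 9.89 and 6.49 CPM in WT and 0.544, 0.588 and 2.29 in KD (-3.05 ± 0.47, adjusted p = 7.30e-04), Ly9 at 12.6, 14.04 and 12.9 CPM in WT and 0.748, 1.72 and 4.21 in KD (-2.54 ± 0.41, adjusted p = 9.00e-04) and the costimulatory ligand Cd86 at 8.10, 6.98 and 9.46 CPM in WT and 1.09, 1.13 and 3.54 in KD (-2.08 ± 0.40, adjusted p = 0.00230). Of the macrophage markers outside complement, Csf1r stood at 88.0 to 95.7 CPM in WT and 35.4 to 51.9 in KD, Adgre1 at 45.6 to 53.6 and 5.23 to 29.8, and Cd68 at 69.1 to 79.4 and 63.6 to 107. Adgre1 and Cd68 were not held. The part of the macrophage markers in these families was not tested.

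Toll-like receptors and adaptors had 5 of 22 lower and 2 higher. Unc93b1, the chaperone of nucleic acid-sensing receptors, stood at 124, 128 and 112 CPM in WT and 29.8, 38.1 and 45.1 in KD (-1.69 ± 0.14, adjusted p = 2.24e-05), while Tlr4 rose by 0.76 ± 0.18 (adjusted p = 0.00693). Inflammasome genes split evenly, with 6 of 31 held higher and 6 lower. Casp4 (caspase-11), Casp12 and Casp1 lie together on chromosome 9. Casp4 stood at 11.6, 7.82 and 10.6 CPM in WT and 162, 96.2 and 59.1 in KD (3.40 ± 0.40, adjusted p = 2.42e-04) and Casp1 at 13.8, 8.14 and 11.1 CPM in WT and 118, 50.3 and 37.2 in KD (2.63 ± 0.47, adjusted p = 0.00224). Casp12 rose by 2.90 ± 0.25 (adjusted p = 3.19e-05). Each was higher in every KD library than in any WT library. The adaptor Pycard, through which sensors recruit caspase-1, fell at the same time, at 5.54, 5.91 and 5.51 CPM in WT and 2.52, 1.67 and 2.13 in KD (-1.43 ± 0.25, adjusted p = 0.00135). Of the PARP family Parp14 and Parp9, interferon-induced neighbours on chromosome 16, fell by 1.55 ± 0.20 (adjusted p = 2.39e-04) and 1.29 ± 0.12 (adjusted p = 3.70e-05), and Parp8 rose by 1.43 ± 0.23 (adjusted p = 9.97e-04). Among 13 S100 proteins S100a8 and S100a9 of neutrophils rose, S100a8 at 11.1, 4.23 and 10.1 CPM in WT and 149.7, 71.1 and 24.1 in KD (3.27 ± 0.69, adjusted p = 0.00631), and S100a3, S100a4 and S100a16 fell. Of the neutrophil markers other than these, Retnlg stood at 1.24 to 2.88 CPM in WT and 100.3, 57.4 and 5.82 in KD, and Ly6g at 0.916 to 2.75 and 0.9499 to 2.50. Annexins had 3 of 10 higher and 2 lower, the Ly6 family 2 of 10 higher and 2 lower, with Ly6c1 at 141, 274.5 and 139 CPM in WT and 29.5, 45.5 and 68.01 in KD (-1.95 ± 0.33, adjusted p = 0.00156) and Plaur, the urokinase receptor, at 0.94.

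In metabolism and transport, 6 polyamine and creatine genes rose. Of 20 tested these 6 were held higher and 1 lower. Odc1, the rate-limiting enzyme of polyamine synthesis, stood at 2215, 1311 and 2073 CPM in WT and 8256, 5388 and 8417 in KD (1.98 ± 0.26, adjusted p = 2.61e-04). Sat1, which acetylates polyamines for export, stood at 194, 136 and 225 CPM in WT and 1813, 1297 and 316 in KD (2.63 ± 0.57, adjusted p = 0.00667), and Smox, which oxidises spermine, at 50.3, 26.97 and 52.98 CPM in WT and 409.5, 170.3 and 149 in KD (2.48 ± 0.48, adjusted p = 0.00363). For Sat1 KD ICI 3 lay far below the other KD libraries and still above every WT library. The neutrophil, erythroid and adipocyte sums, the last of them mostly Fabp4, stood in the same order over the KD libraries, and their part in Sat1 was not tested. Slc6a8, the creatine transporter, rose by 1.33 ± 0.22 (adjusted p = 0.00115). Arg1, the arginase of macrophages, stood at 80.1, 78.7 and 50.8 CPM in WT and 26.2, 18.95 and 30.5 in KD (-1.47 ± 0.26, adjusted p = 0.00164), and Arg2 rose by 2.29 ± 0.52 (adjusted p = 0.00621). NRF2 target and glutathione genes had 6 of 29 higher and none lower. Slc7a11, the cystine importer, stood at 12.8, 3.43 and 10.7 CPM in WT and 40.6, 28.3 and 71.4 in KD (2.38 ± 0.46, adjusted p = 0.00335), Gsr at 279, 298 and 252 CPM in WT and 536, 411 and 468 in KD (0.77 ± 0.13, adjusted p = 0.00135), and Gclc, Gpx8, Srxn1 and G6pdx rose by 0.45 to 0.89. Of 36 ABC transporters 9 were held lower, among them the peptide transporter Tap1 (92.9, 99.1 and 81.5 CPM in WT and 61.5, 52.1 and 48.3 in KD, -0.76 ± 0.12, adjusted p = 9.77e-04) and the cholesterol exporter Abcg1 (-1.72 ± 0.23, adjusted p = 3.33e-04). Abcc4, Abcb1a, Abca3 and Abcb6 were held higher. Metal ion transporters had 5 of 27 higher, with the zinc and iron importer Slc39a14 at 0.87, and 5 lower, with Slc11a1, the phagosomal transporter of macrophages, at -1.30.

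Of 62 translation initiation and elongation factors 12 were held higher (19.4%) and 1 lower. Eef2 stood at 4593, 5042 and 4495 CPM in WT and 11669, 8812 and 7395 in KD (0.98 ± 0.18, adjusted p = 0.00207), and the others rose by 0.41 to 0.81. Of 82 cytosolic ribosomal proteins 37 passed the test and 11 were held (13.4%), all higher, with a median of 0.54 over the 82. Rpl5 stood at 1619.8, 1659 and 1684 CPM in WT and 4779, 3385 and 2401 in KD (1.09 ± 0.20, adjusted p = 0.00191), and Rplp0 at 3309, 3429.8 and 3338 CPM in WT and 7619, 5900.4 and 5133 in KD (0.89 ± 0.16, adjusted p = 0.00178). Of 77 mitochondrial ribosomal proteins 7 were held lower (9.09%), near the 8.54% of all tested genes, and 2 higher, with a median of -0.073. Reads of cytosolic ribosomal genes may be shared with their many processed pseudogenes. Of 47 proteasome subunits 10 were held lower (21.3%) and 1 higher. The leading falls were subunits and activators of the immunoproteasome, which interferon induces, with Psmb9 at 43.3, 40.8 and 35.3 CPM in WT and 13.9, 11.7 and 11.4 in KD (-1.70 ± 0.12, adjusted p = 2.22e-05), Psmb10 at -1.50, Psmb8 at -1.04, Psme2 at -1.20 and Psme1 at -0.76. Psme2b fell too, and Psma5 and Psmc2, of the constitutive particle, fell by 0.61 and 0.52. The last 2 were the assembly chaperones Psmg1 and Psmg2.

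In chromatin, 4 of 16 DNA methylation and TET genes were held higher and 1 lower. Tet2, which oxidises 5-methylcytosine, stood at 39.3, 38.02 and 36.02 CPM in WT and 336, 223 and 89.7 in KD (2.52 ± 0.42, adjusted p = 0.00159), with KD ICI 3 the lowest of KD, an order shared with the same 3 sums, whose part was not tested. Of 34 Polycomb genes 6 were held higher and none lower, under the share set for a full description. Jarid2, a cofactor of Polycomb repressive complex 2, stood at 34.2, 39.1 and 30.5 CPM in WT and 215, 133 and 108 in KD (2.13 ± 0.24, adjusted p = 1.21e-04). Myosin genes had 6 of 31 higher and 2 lower, Myo1f and Myo1g of leukocytes.

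Among the families that reached 2 times the share of all genes in neither direction, ATF4 target and amino acid synthesis genes had 6 of 33 held higher (18.2%) and 1 lower, and autophagy genes 7 of 42 (16.7%) and 1. Of 233 solute carriers 25 were held higher and 27 lower, and of 335 Zfp genes 20 and 23. Several families lay below the shares of all genes in both directions: spliceosomal and SR proteins had 3 of 78 higher and 1 lower, replication licensing and fork genes had none of 47 higher and 2 lower, replication-dependent histones none of 52 higher and 1 lower, and of 21 cytochrome P450 genes 2 passed as higher and 1 as lower, with none held.

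The same genotype comparison in the RI tumours called 3528 genes (21.2%). It contrasts other libraries than the ICI comparison, but all 12 shared 1 fit and 1 estimate of the spread. The held rule also left out each RI library in turn, so the shares below do not come from an independent set. Of the 1546 genes held higher under ICI 844 (54.6%) passed in the same direction under RI and none in the other, and 1471 had the same sign. Of the 1419 held lower 944 (66.5%) passed and 1367 had the same sign. The difference between the treatments itself passed for 61 genes (0.367%), and for 10 of them this difference was held by the same rule. Of the 61, 51 were lower under RI than under ICI. With 1 library left out the count was 10 (without KD RI 1) to 1950 (without KD ICI 3). Of the 10, 7 (Gbp7, Igtp, H2-Q7, Tap1, Slfn2, Irgm1 and Cd274) passed as lower under both treatments, with the lower value under RI, and the others were Dmpk, Pim1 and Ptpn22. Tap1 fell by 0.76 ± 0.12 (adjusted p = 9.77e-04) under ICI and stood at -2.21 under RI, a difference of -1.45 (adjusted p = 0.00568), and Cd274, which encodes PD-L1, at -1.40 and -3.00 (0.00852). Socs3, held higher under ICI but with a difference that was not held, stood at 1.15 under ICI and -0.21 under RI (0.0250). Zfp750, a factor of epidermal differentiation and not held either, stood at 1.65, 3.35 and 1.02 CPM in WT ICI 1 to 3 and at 0.0680, 0.0452 and 0 CPM in KD ICI 1 to 3, with 2 counts in KD in all, and at 0.29 under RI (0.0462).

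**Figure D5:**
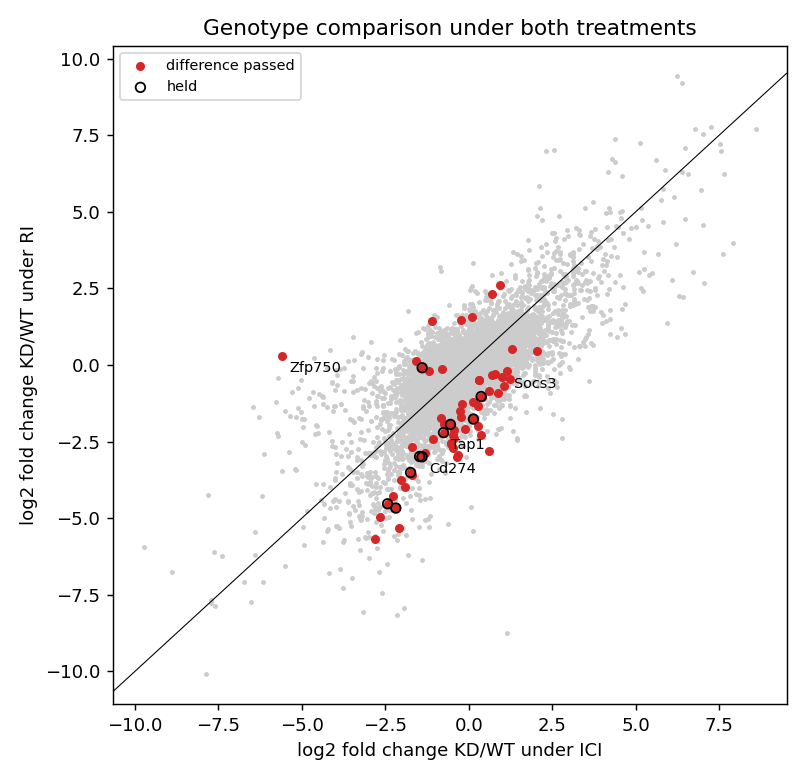
Log2 fold change of KD against WT under ICI (x axis) and under RI (y axis) for the 16617 tested genes (grey) and the 61 genes whose difference between the treatments passed (red, the 10 with a held difference outlined in black). Of the red points 51 lie below the diagonal, and those named are the genes with values in the text.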

How the data were processed

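Whole tumours were sequenced as RNA. The authors deposited whole-number counts per gene and FPKM of the same libraries, per the file headers, and reads were aligned with HISAT2 to GRCm38 (mm10), per the submitters' processing notes. The counter, its annotation and its strand setting are stated by no source used here, so overlapping and antisense genes cannot be separated. The counts of 12 libraries (3 each of KD and WT under ICI and under RI) were filtered with filterByExpr, which left 16617 of 53465 genes, scaled by TMM and fitted with edgeR 4.0.16 (R 4.3.3) with 1 mean per group. P-values were adjusted by Benjamini-Hochberg over all tested genes. Errors after ± are standard errors of the log2 fold change. The deposited FPKM served only to compare levels between genes. Totals of 17289313 to 23471917 counts set the precision, and intervals and floors of 3 counts cover counting error only. Families named up to 4 held genes in each direction with at least 2 CPM in the higher group. Outside that rule C3ar1, Cd274, Cd86, Cfp, Fosl1, Hmga2, Phlda1, Spry2, Hoxa9, Hoxa10, Hoxc6, Il10ra, Il2rg, Itgb5, Psmb8, Psme1, Slc6a8, Tbx21, Trem2 and genes given only in counts or ranges were chosen after their values were seen. The libraries compared and all gene lists were chosen with earlier results of these data known. RefSeq promoters (GRCm38.p6) matched 11264 of 16611 symbols. Some genes and 1 family are not reported here. Alternatives were DESeq2 1.42.0, other scalings, no filter, the 6 libraries alone, the naming stem or replicate number as a term, and each library left out.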

Additional observations from a re-analysis of the deposited data

Results flagged for a closer look

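For 17 genes given in the text the KD against WT difference itself differed between RI and ICI (edgeR's quasi-likelihood test of the interaction, adjusted p under 0.05). The values are the log2 fold change under RI minus that under ICI. Of the 17, the difference was held for 10, that is, it passed in every fit with 1 library left out and with KD ICI 1 and 2 summed. Among these the difference was lower under RI for H2-Q7 (-2.48), Gbp7 (-2.10), Igtp (-1.77), Cd274 (-1.60), Irgm1 (-1.51), Tap1 (-1.45) and Slfn2 (-1.39), all interferon-inducible, and for the kinase gene Pim1 (-1.90) and the phosphatase gene Ptpn22 (-1.40). Dmpk, a kinase of muscle, was higher by 1.30. The other 7 lost the call in at least 1 of those fits: Irf1 (-1.32), Psmb9 (-0.995), Socs3 (-1.36), Hbegf (-1.38), Fosl1 (-1.09), Itgam (-0.89) and Zfp750 (5.88, a fitted value that rests on 2 counts in the KD ICI libraries). The skeletal muscle marker sum was 987 CPM in WT ICI 2, 837 in WT RI 3, and 90.7 and 93.9 in KD RI 2 and 3, against at most 28.02 in the others, and its part in the value of Dmpk was not tested. Over all tested genes 61 differed, with 10 to 1950 when 1 library was left out, lowest without KD RI 1 and highest without KD ICI 3.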

How the results depend on the processing

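With library totals in place of TMM factors 1564 genes were higher and 4141 lower, 902 and 2407 held, and 31 differed between treatments. With the 6 libraries alone 1643 were higher and 1481 lower, 443 and 338 held, with fewer degrees of freedom by construction. The count of genes that differed between treatments was 539 with DESeq2, 147 with no filter on low counts and 21 with the replicate block. The cause of these shifts was not tested. Leaving out 1 library gave 1846 to 3895 genes higher and 1741 to 3891 lower, 10 to 1950 that differed between treatments, and 2459 to 5113 called under RI, each highest without KD ICI 3. The lowest differing count came without KD RI 1. Of the markers, Ly6g (-0.096 on the log2 scale, not passing) stood at 0.047 with KD ICI 1 and 2 summed and between -0.58 and 0.43 with 1 library left out. Cd68 (0.10, not passing) stood at -0.12 with library totals and between -0.16 and 0.25 with 1 library left out. Ptprc and Adgre1 passed but were not held, with adjusted p of 0.0521 and 0.0618 when KD ICI 1 and 2 were summed. Both also missed the threshold in some fits with 1 library left out, and Arhgdib did so without KD ICI 1 (0.0553). Stk11, which had missed the threshold, passed under 6 alternatives given with its values. Of the held genes none changed sign under DESeq2, the other scalings, no filter, the 6 libraries, the naming term or the block. The labels state no pairing by replicate number. Same-numbered KD and WT ICI libraries had correlations of deviations of -0.039, 0.061 and -0.096. Over all 18 same-numbered pairs of the 12 libraries they lay between -0.34 and 0.30. With so few libraries a group these values cannot decide whether samples were paired. With the replicate block 2528 genes were higher and 2439 lower, 1161 and 1119 held, and 3376 were called under RI. Held counts under the naming term and the block leave out the fit with H80 libraries summed, which could not be fitted there. Values that changed sign belonged to genes that had not passed: Igkc stood at -0.00044 with H80 libraries summed, -0.044 with library totals, -0.39 with the block, and between -2.37 and 0.66 with 1 library left out. Krt8 stood at -0.11 with library totals and between -0.12 and 0.24 with 1 library left out, Pim1 at -0.081 and between -0.0095 and 0.24. The alternatives for the lowest and highest window were chosen after seeing the data: with library totals their medians were -1.07 and 0.34, and the others lay within -0.91 to -0.81 and 0.50 to 0.56.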
